A study of Mus musculus with 15 samples.

Results

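A set of genes that code for core transcription factors of the developing heart were followed through RNA-seq libraries of mouse ventricle in which Atf4 had been targeted by Cre recombinase. The 10 genes, Nkx2-5, Gata4, Gata6, Tbx5, Tbx20, Mef2a, Mef2c, Hand1, Hand2 and Srf, were taken by name from 78317 genes in the count tables. All of them had enough counts to be tested, with between 641 and 28224 counts per gene and library. The libraries were labelled as ventricles of C57BL/6 embryos at E11.5, and their titles name heart. In the line labelled CDS, loxP sites flank exons 2 and 3 of Atf4 and the polyadenylation signal is kept, and in the line labelled PAS they flank that signal. Knockouts of both lines carry Xmlc2-Cre, which is driven by a myosin light chain promoter and acts in cardiomyocytes. The 4 groups were CDS knockout (n = 4), CDS control (n = 4), PAS knockout (n = 4) and PAS control (n = 3). The control labels do not say whether those embryos carried Cre or floxed alleles. The ventricle was sequenced whole, so endocardial, epicardial, mesenchymal and blood cells, which the Cre does not target, contributed RNA to every library.

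These factors bind DNA at enhancers of the heart, where several of them act together on one another's genes and on genes of the contractile apparatus. NKX2-5 is a homeodomain protein, GATA4 and GATA6 are zinc finger proteins, TBX5 and TBX20 carry a T-box, MEF2A, MEF2C and SRF carry a MADS box, and HAND1 and HAND2 are basic helix-loop-helix proteins. Loss of single members is known to arrest the growth or patterning of the ventricles in the mouse embryo. HAND1 is known from the left ventricle, and HAND2 is best known for the right ventricle and outflow tract. ATF4, whose gene was targeted here, is known for switching on genes of amino acid supply under stress.

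None of the 10 factors passed the test in either line. Levels are given as CPM, the normalised read count scaled to a common library size. In CDS knockouts 4 members had a lower and 6 a higher mean than in CDS controls, with log2 changes from -0.07 for Mef2c to 0.14 for Tbx20. In PAS knockouts 6 were lower and 4 higher than in PAS controls, with log2 changes from -0.11 for Srf to 0.08 for Hand1. The smallest adjusted p of a member was 0.9998 for the CDS line and 0.934 for the PAS line (edgeR's quasi-likelihood test over 20269 genes with Benjamini-Hochberg adjustment). Of all genes tested, 0.0543% were called for the CDS line and 0.00987% for the PAS line at an adjusted p under 0.05. At an unadjusted p under 0.05, edgeR gave 1 of the 10 members in each line (Mef2c in CDS, Srf in PAS), against 2.62% of all genes for the CDS line and 5.24% for the PAS line. Knockouts and controls failed to overlap for 0 of the 10 members in either line, against 2.8% of all genes for the CDS line and 4.59% for the PAS line. DESeq2 and limma-voom also called 0 of the 10 members in each line. The median log2 change of the members was 0.0098 for the CDS line and -0.0033 for the PAS line, beside medians of -0.0011 and -0.0015 over all genes tested.

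Library totals ran from 31410559 to 43060454 counts in CDS knockouts, from 30376847 to 46472141 in CDS controls, from 23682810 to 29315724 in PAS knockouts and from 22623499 to 27041436 in PAS controls. Atf4 itself stood at 44.5 ± 3.56 CPM (SD, n = 4) in CDS knockouts against 114 ± 1.99 CPM (n = 4) in their controls, and at 286 ± 18.8 CPM (n = 4) in PAS knockouts against 97.1 ± 4.27 CPM (n = 3) in theirs. The targeted gene was thus lower in the libraries labelled CDS knockout and higher in those labelled PAS knockout, so every direction here is that of the library labelled so. CDS knockout 3 stood apart from the other CDS knockouts over all genes, with a chi-square per degree of freedom of 50.3 to 62.6 against each of them, where the 18 other pairs of libraries of a group had 3.41 to 13.8. Without it 11 genes and 0 members were called in the CDS line, as many as with it. The titles name heart, and other labels name both dissected ventricle and cortical neurons as the source of RNA. All 10 cardiomyocyte markers examined were present, with a summed level between 24869 and 28194 CPM in every library, while 7 neural markers summed to between 25.6 and 43.9 CPM.

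To compare the factors with each other, CPM was divided by the annotated exon length in kilobases (FPKM), and the 7 controls of both lines were used. Gata4 was the highest at 83.7 ± 2.90 FPKM (SD, n = 7), at the 97.9th percentile of all genes tested. Nkx2-5 followed at 76.1 ± 3.08 FPKM, and its highest control lay below the lowest control of Gata4. Srf at 47.9 ± 1.86 FPKM and Tbx20 at 47.7 ± 5.58 FPKM overlapped, and Hand2 came next at 38.2 ± 0.988 FPKM, below both. Gata6, Hand1 and Tbx5 formed a tied group at 18.6 ± 1.07, 18.6 ± 2.48 and 18.6 ± 1.06 FPKM, and Mef2a at 16.3 ± 0.779 FPKM overlapped with Tbx5. Mef2c was the lowest at 11.3 ± 0.292 FPKM, at the 78.9th percentile, and did not overlap with Mef2a. In each of the 15 libraries Gata4 ranked 1, Nkx2-5 ranked 2, Hand2 ranked 5 and Mef2c ranked 10 among the members. Full exon length was used, also for Hand1 and Hand2, which share 36.8% and 28.2% of their exon bases with genes on the other strand. Fragments on such bases are left out of the counts by default, so the places of Hand1 and Hand2 in this order are not settled. Exon length is the union over all annotated isoforms, 15715 bases for Mef2c and 14681 bases for Mef2a against 1719 bases for Nkx2-5, so FPKM understates a gene whose long isoforms are little used.

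**Figure D1:**
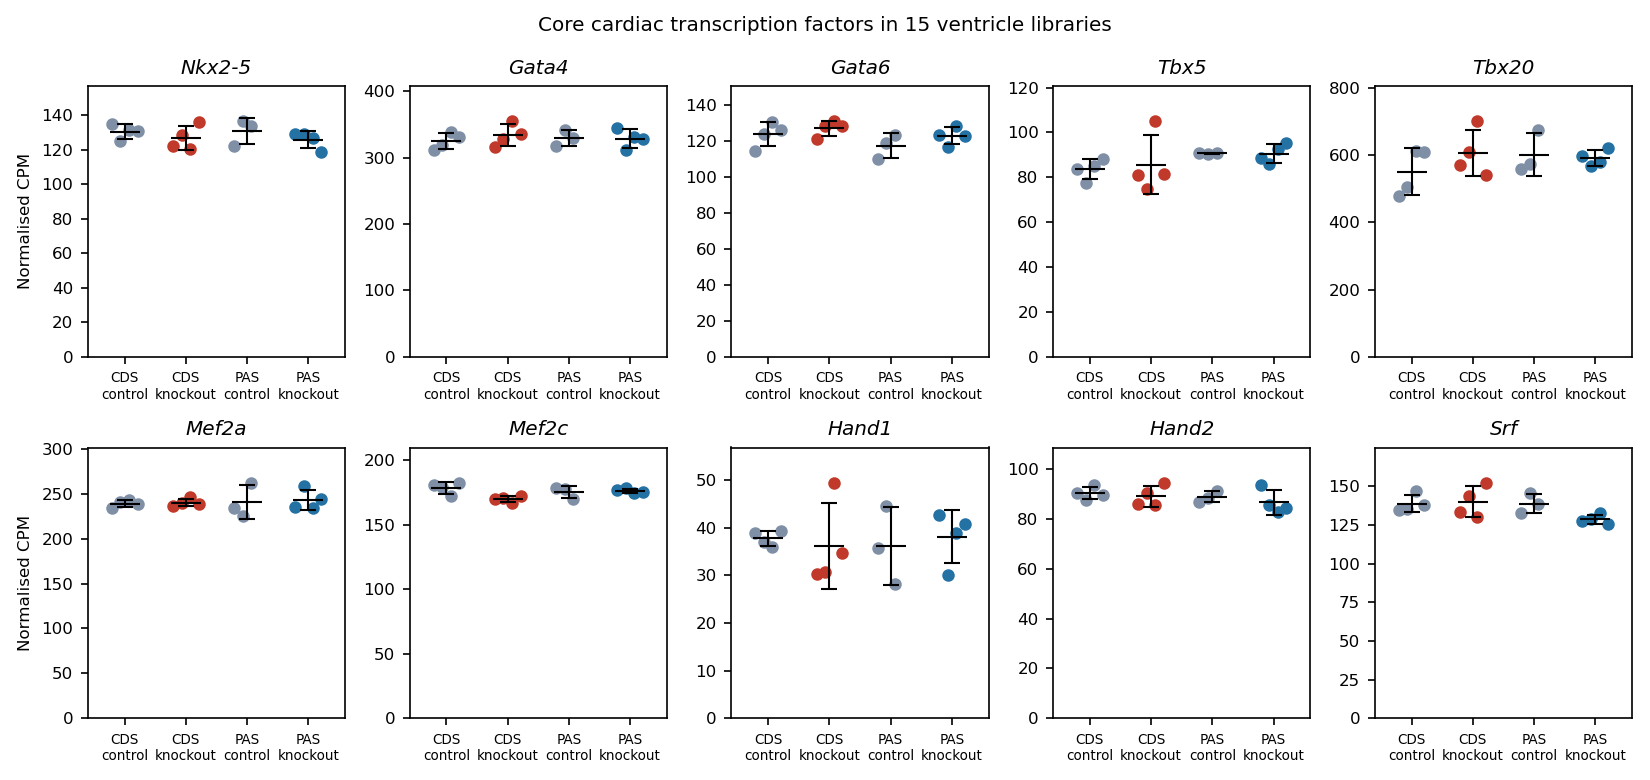
Normalised CPM of the 10 factors (vertical axis, starting at 0) in each library of the 4 groups. Points are libraries, the bar is the group mean and the whiskers are 1 SD. For each factor the knockouts overlap with the controls of their line, and Hand1 shows the widest scatter, from 28.1 to 49.4 CPM.

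Nkx2-5 (chromosome 17, 27057638 to 27063983, minus strand, GRCm39) codes for the homeodomain factor that marks cardiac progenitors and cardiomyocytes. Its level was 122, 129, 121 and 136 CPM in CDS knockouts against 135, 125, 131 and 131 CPM in CDS controls. In the other line it was 129, 129, 127 and 119 CPM in PAS knockouts against 122, 137 and 134 CPM in PAS controls. The groups overlapped in both lines. The log2 change was -0.04 ± 0.05 (SE; 95% interval -0.13 to 0.05) for the CDS line and -0.05 ± 0.05 (SE; 95% interval -0.16 to 0.05) for the PAS line.

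The GATA factors open chromatin at cardiac enhancers and are also made by endocardium, mesenchyme and epicardium. Gata4 (chromosome 14, 63436371 to 63509141, minus strand) stood at 316, 328, 355 and 336 CPM in CDS knockouts against 311, 319, 339 and 331 CPM in CDS controls. It stood at 345, 311, 331 and 328 CPM in PAS knockouts against 317, 341 and 330.1 CPM in PAS controls. No library of Gata4 was more than 0.09 from its group mean on the log2 scale. The log2 change was 0.04 ± 0.04 for the CDS line and -0.0031 ± 0.05 for the PAS line (SE). Gata6 (chromosome 18, 11052064 to 11085635, plus strand) stood at 121, 129, 131 and 128 CPM in CDS knockouts against 115, 124, 130.5 and 126 CPM in CDS controls. It stood at 123, 117, 128 and 123 CPM in PAS knockouts against 110.2, 119 and 124 CPM in PAS controls. Gata6 knockouts had the higher mean in both lines, within the spread of the controls, at log2 changes of 0.04 ± 0.04 and 0.07 ± 0.05 (SE). The CDS value was 0.0053 without CDS control 1, and the PAS value was 0.021 without PAS control 1 and 0.10 without PAS control 3.

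The T-box factors pattern the chambers: TBX5 marks the left ventricle and atria and drives the natriuretic peptide gene Nppa, and TBX20 holds back Tbx2 in the growing chamber wall. Tbx5 (chromosome 5, 119970733 to 120023284, plus strand) stood at 81.1, 75.0, 105 and 81.3 CPM in CDS knockouts against 83.6, 77.6, 85.2 and 88.3 CPM in CDS controls. CDS knockout 3 was the one high library, above every other library of the series for this gene. Among PAS libraries Tbx5 stood at 88.4, 86.1, 92.6 and 95.3 CPM in knockouts and 91.0, 90.6 and 90.9 CPM in controls. The log2 change was 0.03 ± 0.08 for the CDS line and -0.0034 ± 0.09 for the PAS line (SE), and without CDS knockout 3 the first became -0.08. Tbx20 (chromosome 9, 24629434 to 24685599, minus strand) had the highest count of the members in every library. It stood at 571, 609, 699.8 and 542 CPM in CDS knockouts against 478, 504, 612 and 609 CPM in CDS controls, and the groups overlapped. In PAS knockouts Tbx20 stood at 597, 566, 577 and 619.9 CPM and in PAS controls at 558, 572 and 673 CPM. Its log2 change of 0.14 ± 0.10 in CDS knockouts (SE; 95% interval -0.07 to 0.34) was the largest of a member in that line, and in PAS knockouts it was -0.03 ± 0.10 (SE). The first was 0.060 without CDS knockout 3 and 0.074 without CDS control 1, and the second was 0.063 without PAS control 3 and -0.077 without PAS control 1.

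MEF2 factors switch on the genes of the sarcomere, and Mef2c is needed for looping and right ventricle growth. Mef2a (chromosome 7, 66880911 to 67022606, minus strand) stood at 236, 239.7, 246 and 238 CPM in CDS knockouts against 234, 240.4, 243 and 238 CPM in CDS controls. Its log2 change was 0.0074 ± 0.04 for the CDS line and 0.01 ± 0.05 for the PAS line (SE), where knockouts lay between 234 and 258 CPM and controls between 225 and 262 CPM. Mef2c (chromosome 13, 83652153 to 83815199, plus strand) was the least variable member. It stood at 169.6, 171, 166 and 172 CPM in CDS knockouts against 181, 179, 172 and 182 CPM in CDS controls, so 3 of 4 knockouts lay below every control and the highest knockout (172.2 CPM) lay just above the lowest control (172.1 CPM). The log2 change of Mef2c was -0.07 ± 0.03 (SE; 95% interval -0.14 to -0.0033), and its Benjamini-Hochberg adjusted p from edgeR was 0.9998. In PAS knockouts Mef2c stood at 177, 178, 175 and 175 CPM and in PAS controls at 178, 178 and 169.6 CPM, a log2 change of 0.0090 ± 0.04 (SE).

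HAND factors act in the ventricle wall and, for HAND2, in endocardium, epicardium and outflow tract as well. Hand1 (chromosome 11, 57719531 to 57723644, minus strand) had the fewest counts of the members in each library. It stood at 30.2, 30.6, 49.4 and 34.6 CPM in CDS knockouts against 38.8, 36.98, 35.9 and 39.3 CPM in CDS controls. Of the 4 knockouts 3 were thus below every control and CDS knockout 3 was above every control. Among PAS libraries Hand1 stood at 42.6, 30.1, 39.0 and 40.7 CPM in knockouts and 35.8, 44.5 and 28.1 CPM in controls. The log2 change was -0.06 ± 0.18 (SE; 95% interval -0.45 to 0.32) for the CDS line and 0.08 ± 0.20 (SE; 95% interval -0.35 to 0.51) for the PAS line. Without CDS knockout 3 the first was -0.25, still not past the test. Hand2 (chromosome 8, 57774018 to 57777668, plus strand) stood at 85.8, 90.5, 85.6 and 94.5 CPM in CDS knockouts against 90.5, 87.6, 93.6 and 89.6 CPM in CDS controls. In PAS knockouts Hand2 stood at 93.7, 85.4, 82.9 and 84.5 CPM and in PAS controls at 86.9, 88.4 and 91.4 CPM. Its log2 changes were -0.02 ± 0.04 and -0.04 ± 0.05 (SE).

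SRF binds CArG boxes in genes of actin and the sarcomere, and is known to act on its own gene through such boxes. Srf (chromosome 17, 46859255 to 46867101, minus strand) stood at 133, 143, 130.2 and 152 CPM in CDS knockouts against 134, 136, 147 and 138 CPM in CDS controls, a log2 change of 0.01 ± 0.05 (SE). In the PAS line it stood at 128, 129, 133 and 125 CPM in knockouts and 133, 145 and 138 CPM in controls. Of these knockouts 3 of 4 lay below every control and the highest (132.7 CPM) lay just above the lowest control (132.6 CPM). The log2 change of Srf in the PAS line was -0.11 ± 0.05 (SE; 95% interval -0.21 to -0.0050), and its Benjamini-Hochberg adjusted p from edgeR was 0.934.

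Start windows are shown for a pair of members whose bases match the letters of a site for a core factor. RefSeq start sites on GRCm38.p6 matched 6 of the 10 members (Nkx2-5, Tbx20, Mef2a, Mef2c, Hand2 and Srf) with 8 windows in all, each of 250 bases before a start. The capitals mark CArG boxes in Srf, and in Hand2 a GATA site (AGATAA, here on the other strand). The last 13 bases of the Srf window are annotated as untranslated region and are left off, which leaves chr17:46556176-46556412 on the minus strand. The Hand2 window is chr8:57320733-57320982 on the plus strand. All 250 of its bases lie in an annotated exon of Hand2os1, a gene on the other strand.
Srf: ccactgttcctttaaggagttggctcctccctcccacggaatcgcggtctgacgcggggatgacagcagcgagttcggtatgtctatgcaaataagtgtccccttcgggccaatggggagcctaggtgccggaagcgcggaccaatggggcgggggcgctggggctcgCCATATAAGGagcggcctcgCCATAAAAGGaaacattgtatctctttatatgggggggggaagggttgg
Hand2: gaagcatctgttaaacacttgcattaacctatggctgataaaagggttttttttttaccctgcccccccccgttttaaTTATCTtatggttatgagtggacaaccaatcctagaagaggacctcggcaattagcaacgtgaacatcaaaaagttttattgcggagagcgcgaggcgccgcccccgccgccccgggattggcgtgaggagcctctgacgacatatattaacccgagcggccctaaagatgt

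The Srf window held 2 CArG boxes, from 82 to 73 and from 62 to 53 bases before the start, and 1.47% of 32851 windows of that length in the RefSeq table held at least 1. The GATA site AGATAA was in 1 of the 8 windows, that of Hand2, from 172 to 167 bases before the start, against 9.99% of all windows. Only these letters were searched for GATA factors, so other spellings of a GATA site in the windows are not marked. Both strands were searched. The element TGATGNAA, which ATF4 binds with a C/EBP partner, was in 0 of the 8 windows, and in 3.45% of all windows. The full cyclic AMP response element TGACGTCA was in 0 of 8 (1.55% of all windows), and its core TGACG, which overlaps the full element, was in the windows of Hand2, Nkx2-5, Srf and Tbx20 (17.8% of all windows). The T-box site AGGTGTGA and the MEF2 site were in 0 of 8, against 1.12% and 0.508% of all windows, and the E-box CANNTG was in 4 of 8, against 66.2%. Annotated untranslated region made up 43 bases of the Nkx2-5 window and 80 bases of a Mef2c window, and these bases were searched too. The TGACG of Nkx2-5 lay from 42 to 38 bases before the start. These are matches of letters within 250 bases and do not show binding.

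**Figure D2:**
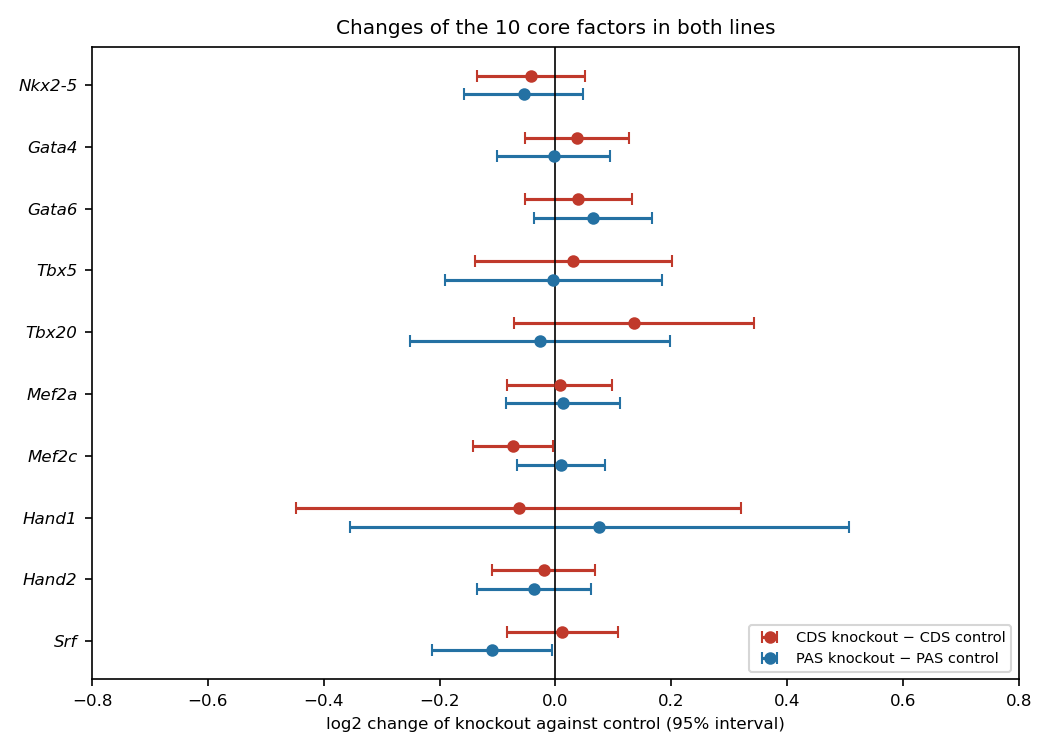
log2 change of each factor (points) with its 95% interval (whiskers), red for CDS knockouts against CDS controls and blue for PAS knockouts against PAS controls. The points lie between -0.11 and 0.14, and the widest intervals are those of Hand1, from -0.45 to 0.32 and from -0.35 to 0.51.

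The intervals set how large a change these libraries could have hidden. In the CDS line the 95% interval of the ratio of knockout to control lay within 0.8 to 1.25 for 8 of the 10 members, the exceptions being Hand1 and Tbx20. In the PAS line it lay within those limits for 9 of 10, with Hand1 the exception. The limits were chosen after the values were seen. Over all members the intervals reached down to 0.733 and up to 1.27 in the CDS line and down to 0.782 and up to 1.42 in the PAS line. The median absolute log2 change of the members was 0.039 for the CDS line and 0.032 for the PAS line, beside 0.062 and 0.078 over all genes tested. The members lay between the 78.9th and 97.9th percentile of those genes by FPKM in controls. Genes of like level were not compared, so the medians do not show that the members were steadier. In bulk tissue a change in the share of cardiomyocytes and a change of RNA per cell cannot be told apart.

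The changes of the lines were also compared with each other, which uses all 4 groups. The difference, PAS change minus CDS change, was called for 0 of 10 members (0.00493% of all genes were called by edgeR's quasi-likelihood test), with an adjusted p of 0.995 for each member. At an unadjusted p under 0.05 it also held 0 members, against 4.16% of all genes. The largest differences were -0.16 ± 0.14 for Tbx20, 0.14 ± 0.26 for Hand1, -0.12 ± 0.07 for Srf and 0.08 ± 0.05 for Mef2c on the log2 scale (SE). The intervals of the difference ran from -0.47 to 0.72 over the members, so equal changes in the lines were not shown.

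PAS controls were set against CDS controls as a measure of how far the factors differed between the controls of the lines. None of the 10 members was called (0.143% of all genes were called by edgeR's quasi-likelihood test), and at an unadjusted p under 0.05 the count was 0 members against 9.60% of all genes. Tbx5 was the one member whose groups did not overlap, with PAS controls between 90.6 and 91.0 CPM and CDS controls between 77.6 and 88.3 CPM, and 9.46% of all genes did not overlap in this comparison. Its log2 difference was 0.12 ± 0.09 (SE; Benjamini-Hochberg adjusted p from edgeR's quasi-likelihood test = 0.707). Libraries of the PAS line were shallower and were counted in a separate run per the file headers, and line, run and depth cannot be told apart.

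The spread between libraries of the same group was widest for Hand1, Tbx20 and Tbx5. The coefficient of variation within groups was 18.5% for Hand1, 10.2% for Tbx20 and 8.50% for Tbx5, and between 2.05% for Mef2c and 4.85% for Srf in the rest. Counting error alone gives 2.92% for Hand1, 0.733% for Tbx20 and 1.90% for Tbx5 at their mean counts, so the spread of Tbx20 was 13.9 times and that of Hand1 6.32 times the counting error. For Mef2c the spread was 1.53 times the counting error. The width for Tbx5 rested on CDS knockout 3: without that library its coefficient of variation was 4.20%, within the range of the other 7, while Hand1 had 14.2% and Tbx20 8.95%. CDS knockout 3 was the highest of the 8 CDS libraries for Hand1, Tbx5, Tbx20, Gata4, Gata6 and Mef2a and the lowest for Nkx2-5, Mef2c, Hand2 and Srf, so it was at an end of the range for all 10 members. That library and CDS knockout 4 also had the highest levels of Ttr, a gene of liver and choroid plexus, at 104 and 154 CPM against 11.2 to 35.2 CPM in the other CDS libraries. The part of such tissue in these results was not tested. Without CDS knockouts 3 and 4, 0 of the 10 members were called in the CDS line, and the log2 change of Tbx5 was -0.10 in place of 0.03.

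**Figure D3:**
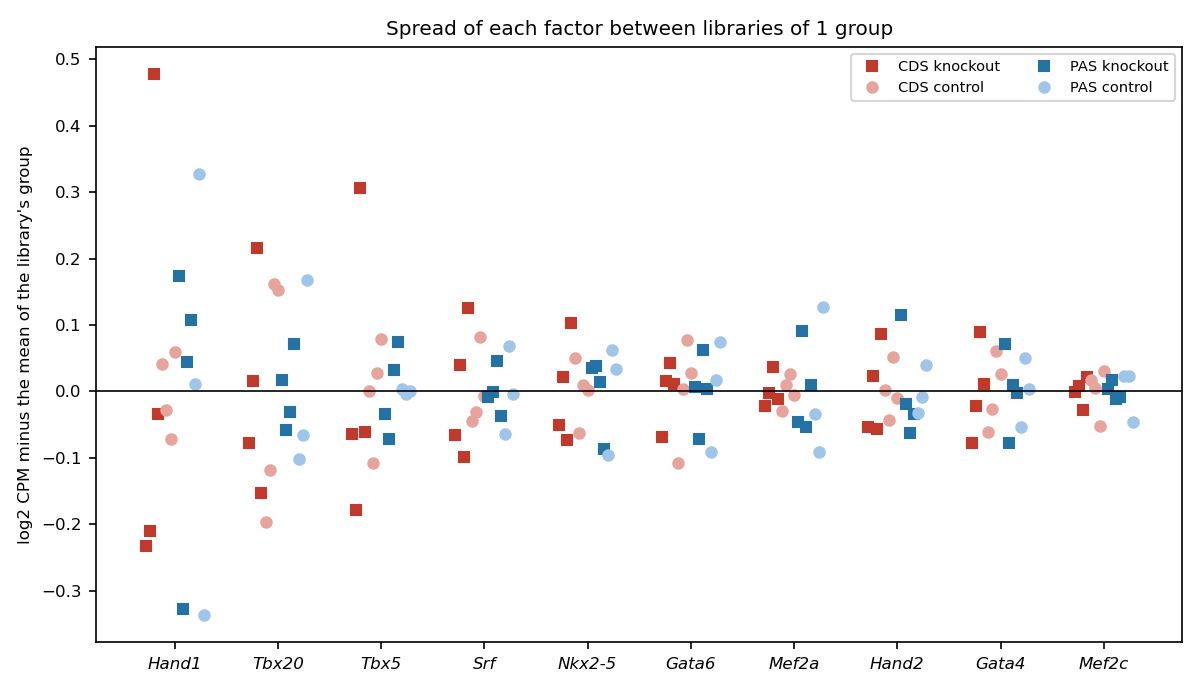
log2 CPM of each library minus the mean of its group (vertical axis) for the 10 factors, ordered by spread. Squares are knockouts and circles controls, red for the CDS line and blue for the PAS line, and Hand1, Tbx20 and Tbx5 at the left scatter most.

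Whether the factors varied together was examined on these deviations from the group means, over the 45 pairs of members and the 15 libraries. Gata4 and Gata6 had the closest relation, with Pearson's r = 0.756 (permutation p = 0.0033) and Spearman's rho = 0.729 (permutation p = 0.0060). After Benjamini-Hochberg adjustment over 45 pairs the permutation p was 0.151 for r and 0.237 for rho, so it did not pass. Without the 2 libraries farthest from the median of Gata4, r was 0.731, and it was 0.855 within the CDS line (n = 8) and 0.637 within the PAS line (n = 7). Nkx2-5 and Srf came next, with r = 0.746 (permutation p = 0.0111, adjusted 0.198) and rho = 0.632 (permutation p = 0.0357, adjusted 0.237). Without the 2 libraries farthest from the median of Nkx2-5 their r was 0.729, and it was 0.765 within the CDS line and 0.793 within the PAS line. Gata6 and Tbx20 gave r = 0.697, and Tbx20 and Mef2c gave r = -0.648. Tbx5 and Hand1 gave r = 0.678 (permutation p = 0.0263, adjusted 0.198) and rho = 0.575 (permutation p = 0.0368, adjusted 0.237). Without the 2 farthest libraries r of Tbx5 and Hand1 was 0.357, and it was 0.910 within the CDS line and 0.369 within the PAS line, so this relation rests on few libraries. None of the 45 pairs passed the adjustment.

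Related factors were compared within each library, where their ratio needs no library scaling. Gata4 exceeded Gata6 by 4.25 to 4.80 times per length of exon in the 15 libraries, and Mef2a exceeded Mef2c by 1.36 to 1.65 times. Tbx5 stood at 0.316 to 0.449 of Tbx20. Hand1 stood at 0.414, 0.399, 0.680 and 0.432 of Hand2 in CDS knockouts and at 0.505, 0.497, 0.451 and 0.516 in CDS controls. In CDS knockouts 3 libraries lay below every control and 1 above. Among PAS libraries Hand1 stood at 0.535, 0.415, 0.553 and 0.567 of Hand2 in knockouts and at 0.485, 0.593 and 0.362 in controls, with overlap. Of the 8 tests, the ratio of Mef2a to Mef2c in the CDS line, higher in knockouts by 0.08 on the log2 scale, gave the smallest p (exact two-sided permutation test, p = 0.114, adjusted p = 0.571). The ratio of Gata4 to Gata6 in the PAS line was lower in knockouts by a log2 difference of -0.07 (exact two-sided permutation test, p = 0.143, adjusted p = 0.571). The smallest p that these designs allow is 0.0286.

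**Figure D4:**
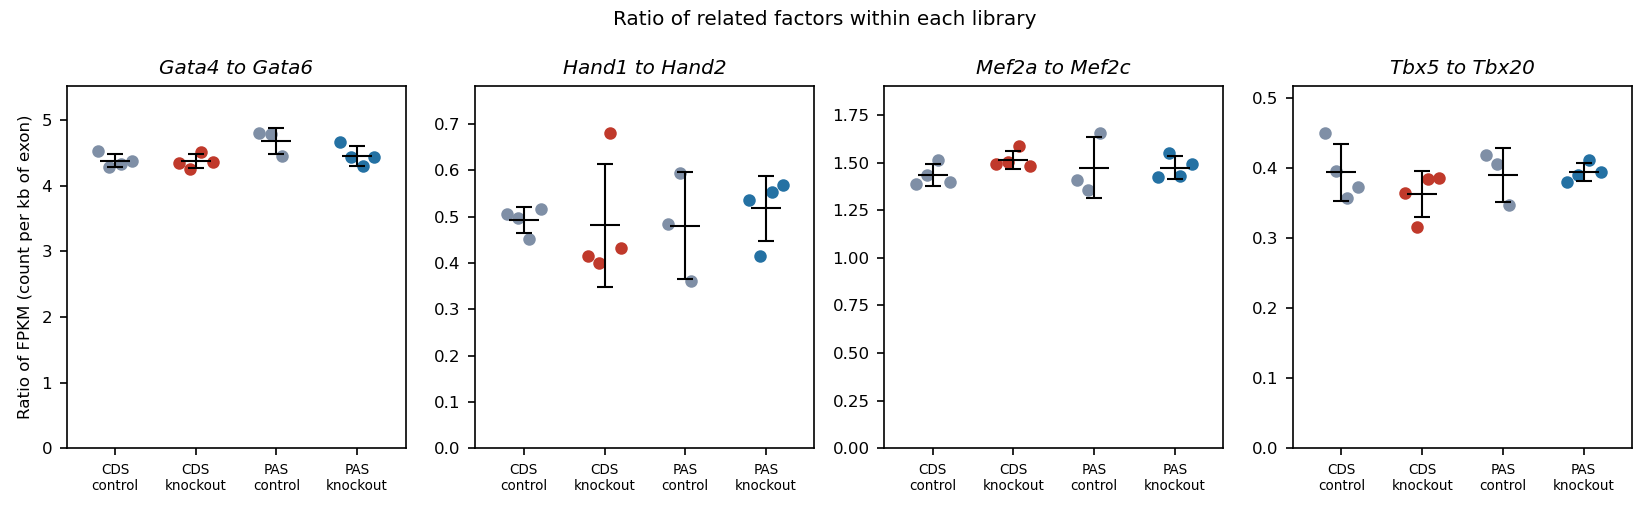
Ratio of related factors within each library, from counts per kilobase of exon (vertical axes start at 0), by group. Points are libraries, bars group means and whiskers 1 SD, and the ratio of Hand1 to Hand2 in CDS knockout 3, at 0.680, lies above all other libraries.

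Several of the members share bases with a gene on the other strand, which matters because the counting was not set to use strand. The program leaves out, by default, fragments that fall on exons of more than 1 gene. Shared exon bases made up 36.8% of Hand1, 28.2% of Hand2, 8.93% of Gata6, 4.15% of Tbx5 and 2.06% of Mef2a, and 0% of the other 5 members. Hand1 and Hand2 thus lose fragments, while fragments from the other strand on their remaining exon bases would be counted as theirs. Neither amount was measured, so the net effect on their levels per length is unknown. The order of the members and the ratios that hold Hand1 or Hand2 depend on it. Whether the loss was equal in every library was not tested.

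These partners, chosen by position, were measured beside the members. Hand2os1, the long noncoding RNA also known as Upperhand, whose annotated span on the opposite strand covers all of Hand2, stood at 211.7, 204, 183 and 189 CPM in CDS knockouts and at 203, 201, 203 and 209.6 CPM in CDS controls. It had more counts than Hand2 itself in each library, but per length of exon it stood at 0.324 to 0.408 of Hand2. Its log2 change was -0.05 ± 0.06 for the CDS line and 0.0071 ± 0.06 for the PAS line (SE). 1010001N08Rik, the divergent partner of Gata6, had a mean of 38.5 CPM in CDS knockouts against 32.6 CPM in CDS controls, and of 36.97 CPM in PAS knockouts against 42.0 CPM in PAS controls. Its log2 changes of 0.24 ± 0.10 and -0.18 ± 0.11 (SE) pointed in opposite directions and neither passed (Benjamini-Hochberg adjusted p from edgeR's quasi-likelihood test = 0.9998 and 0.986). Gm43050, divergent from Tbx5, changed by 0.01 ± 0.09 and -0.04 ± 0.11, and ENSMUSG00000142658.1, which lies across Hand1, by -0.01 ± 0.15 and -0.24 ± 0.17 on the log2 scale (SE). None of the 9 partners tested was called in either line.

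Other cardiac transcription factors and cofactors were taken from a list of 30 genes, of which 28 could be tested. In CDS knockouts 13 were lower and 15 higher and 0 were called, with a median log2 change of 0.0014. In PAS knockouts 18 were lower and 10 higher and 0 were called, with a median of -0.03. The log2 changes ran from -0.14 for Meis1 to 0.81 for Isl1 in the CDS line. In the PAS line they ran from -0.71 for Isl1 to 0.05 for Mrtfb (all named after their values were seen). The most abundant were Smyd1, a muscle methyltransferase, at 592 CPM in CDS knockouts against 630.1 CPM in CDS controls, and Tead1, a factor of the Hippo pathway, at 427 and 442 CPM. Their log2 changes in the CDS line were -0.09 ± 0.07 and -0.05 ± 0.06 (SE).

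Genes known as targets of the core factors, 30 sarcomere, natriuretic peptide, calcium handling and junction genes, were examined as a list. The activity of the factors themselves was not measured. In CDS knockouts 25 of 30 had a lower and 5 a higher mean, and 0 were called, with a median log2 change of -0.06 beside -0.0011 over all genes. In PAS knockouts 18 were lower and 12 higher, 0 were called, and the median was -0.01. Actc1, cardiac actin, went from 10787 CPM in CDS controls to 9857 CPM in CDS knockouts (log2 -0.13 ± 0.05, SE), and Myh7, the beta myosin heavy chain, from 6563 to 5952 CPM (log2 -0.14 ± 0.06, SE), neither past the test. In the PAS line Actc1 changed by -0.04 ± 0.06 and Myh7 by 0.08 ± 0.06 (SE). The 10 cardiomyocyte markers, 8 of which are also in the target list, had 0 called in either line. All 10 had a lower mean in CDS knockouts, with a median log2 change of -0.07. In PAS knockouts 4 were lower and 6 higher, with a median of 0.04. Their summed level was 24869 to 27111 CPM in CDS knockouts against 26277 to 28156 CPM in CDS controls, and 27698 to 28194 CPM in PAS knockouts against 26999 to 28142 CPM in PAS controls, with overlap in both lines and all 10 markers above 0 in each group. The part of cell composition was not tested.

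Signals that act upstream of the core factors, 24 genes of the BMP, neuregulin, Notch, FGF, Wnt, TGF-beta, endothelin and retinoic acid pathways, gave 11 lower and 13 higher in CDS knockouts and 6 lower and 18 higher in PAS knockouts, with 0 called in either. Their median log2 changes were 0.0076 and 0.03. The changes ran from -0.17 for Bmp10 to 0.60 for Bmp2 in the CDS line. In the PAS line they ran from -0.30 for Wnt2 to 0.16 for Nrg1 (ends named after their values were seen). Bmp10, a trabecular growth factor, stood at 276 CPM in CDS knockouts against 309 CPM in CDS controls (log2 -0.17 ± 0.07, SE), and at 285 and 282 CPM in the PAS line. Ctnnb1, which codes for beta-catenin, changed by -0.0070 ± 0.03 and 0.02 ± 0.04 (SE).

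Amino acid supply genes known as ATF4 targets are given for scale. Of 26 genes 23 had a lower and 3 a higher mean in CDS knockouts, and 24 a lower and 2 a higher mean in PAS knockouts. Median log2 changes were -0.20 and -0.19. In CDS knockouts 7 were called lower and 0 higher, where 0.0543% of all genes were called. In PAS knockouts 1 was called lower and 0 higher, where 0.00987% of all genes were called. Cars, the cysteinyl-tRNA synthetase gene, went from 29.7 to 21.6 CPM in the CDS line and from 29.4 to 20.8 CPM in the PAS line (Benjamini-Hochberg adjusted p from edgeR's quasi-likelihood test = 0.000506 and 0.00203). Iars, Yars and Phgdh, which code for enzymes that load isoleucine and tyrosine and that begin serine synthesis, fell by 0.33, 0.27 and 0.33 on the log2 scale in CDS knockouts. These genes were known from earlier results of these data and serve only to show the size of change that the test called here.

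Markers of the other cells of the ventricle had 0 called members in each list and each line. Summed over 10 endothelial and endocardial markers, levels were 1695 to 1793 CPM in CDS knockouts against 1816 to 1936 CPM in CDS controls. These sums did not overlap. The share of single genes without overlap in that comparison was 2.8%, which is not a background for a sum of 10 genes. In the PAS line the sums were 1783 to 1868 CPM in knockouts against 1619.6 to 1894 CPM in controls, with overlap. Cdh5 and Npr3, the most abundant of them, changed by -0.14 and -0.11 in the CDS line and by 0.08 and 0.05 in the PAS line on the log2 scale. All 9 markers of cushion mesenchyme, which also express Gata4, Gata6, Tbx20 and Hand2, had a higher mean in CDS knockouts (Vcan 0.04, Col3a1 0.06) and a lower mean in PAS knockouts (Vcan -0.01, Col3a1 -0.0013). These 2 most abundant markers were among the least changed: the median over the 9 was 0.28 in CDS knockouts, with 0.59 for Twist1 the highest (named after its value was seen), and -0.11 in PAS knockouts. Their sums overlapped, at 3076 to 3660 CPM in CDS knockouts, 2775 to 3355 CPM in CDS controls, 3102 to 3598 CPM in PAS knockouts and 3359 to 3641 CPM in PAS controls. Epicardial markers summed to 360 to 384 CPM in CDS knockouts against 362 to 417 CPM in CDS controls, where Upk3b and Tbx18 changed by -0.09 and -0.08. Among PAS libraries they summed to 335 to 429 CPM in knockouts and 328 to 426 CPM in controls. Median log2 changes in the CDS and PAS lines were -0.10 and 0.05 for the endothelial list, -0.03 and 0.03 for the epicardial, -0.10 and -0.55 for the erythroid, 0.04 and -0.17 for the leukocyte, -0.04 and -0.10 for the atrial, 0.18 and -0.21 for the neural and 0.85 and -0.10 for the liver and choroid plexus list. Whether these cells had a part in the members' values was not tested. The remaining lists gave log2 changes in the CDS and PAS lines of -0.14 and -0.47 for Hbb-y and -0.08 and -0.57 for Hba-x (erythroid cells), 0.04 and 0.12 for Lyz2 and -0.08 and -0.11 for Csf1r (leukocytes), and 0.05 and -0.07 for Myl7 and -0.08 and 0.06 for Angpt1 (atrium). Neural markers gave 0.07 and 0.06 for Gap43 and 0.80 and -0.34 for Tubb3, and liver and choroid plexus markers gave 0.11 and 0.02 for Trf and 1.52 in the CDS line for Ttr, which was at most 0.743 CPM in PAS libraries.

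For each member the gene of most similar pattern over the 15 libraries was found by the root mean square difference of log2 CPM, both genes centred on their mean. For Hand1 it was Tmem163, with a difference of 0.11 where Hand1 itself varied by 0.22. For Tbx20 it was Arhgef40 (0.06, against 0.14 for Tbx20 itself) and for Tbx5 it was Acot1 (0.07, against 0.12). The other 7 members varied by 0.037 to 0.078 in all, and their closest genes differed from them by 0.024 to 0.044: Atad3a for Nkx2-5, Ptbp1 for Gata4, Vezf1 for Gata6, Prkacb for Mef2a, Ext2 for Mef2c, Nop56 for Hand2 and Lmnb1 for Srf.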

How the data were processed

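RNA-seq counts of 15 libraries in 4 groups, assigned from the sample titles, were used. Per the file headers, the authors counted read pairs per gene over exons of GENCODE mouse release 37 (GRCm39) with featureCounts 2.1.1, with no strand option, in a separate run per line. The submitters' processing notes list HISAT2 2.2.1 and STAR 2.7.11b without roles. The labels conflict on poly(A) selection and ribosomal depletion. Symbols came from GENCODE release 21 by identifier (51487 of 78317 matched). Genes were kept by filterByExpr (minimum count 10; 20269 kept) and fitted in one model of 4 group means with edgeR 4.0.16 (R 4.3.3; trimmed mean of M values, factors 0.986 to 1.01, 11 residual degrees of freedom), checked on simulated data. Calls needed an adjusted p under 0.05. The SE is the absolute log2 change over the square root of F. The biological coefficient of variation was 7.44%. Ratios and correlations used exact and 100000-draw permutation tests. Replicates are biological per the design text, which gives 4 per genotype; 3 PAS controls were analysed here. Over 21 replicate pairs chi-square per degree of freedom was 3.41 to 62.6, so none was merged.

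The members and lists were chosen with earlier results of these data known. Named genes were Atf4, the members, and from each list up to 4 called genes or else the 2 most abundant. The most similar gene for each member was also named. Antisense partners were added later by position, and genes at the ends of some lists were named after their values were seen. Other settings were DESeq2 1.42.0, its size factors, limma-voom (limma 3.58.1), no filter, groups compared alone, a replicate block and libraries left out.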

Additional observations from a re-analysis of the deposited data

Results flagged for a closer look

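In 42 sets of 4 libraries checked for a library far from the rest (each member and each ratio in the 3 groups of 4), chance would mark about 1 in 20, and 1 was marked. The ratio of Hand1 to Hand2 per length of exon was 0.680 in CDS knockout 3, against 0.399, 0.414 and 0.432 in the other CDS knockouts. The gap to the next library made up 0.883 of the range of the group, above the limit of 0.829.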

How the results depend on the processing

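None of the 10 members was called under any of the 22 other settings. Of 870 recomputed member values, 809 kept their direction and 61 changed sign, and the lowest adjusted p was 0.406. With no filter on low counts 31, 7, 3 and 201 genes were called for the CDS line, the PAS line, the difference of the lines and PAS against CDS controls, with DESeq2 20, 7, 2 and 102, and with limma-voom 13, 2, 2 and 28. Groups compared alone gave 12 and 1 genes for the lines and 10 for the controls. Leaving out 1 library gave 10 to 14 genes for the CDS line, 2 to 3 for the PAS line, 1 to 2 for the difference (2 without CDS knockout 4 or PAS knockout 4) and 15 to 43 between the controls (15 without PAS control 1), with 0 members in each case. Signs changed without CDS knockouts 3 and 4 in the CDS line for Gata4 (-0.013), Tbx5 (-0.10), Mef2a (-0.0051) and Srf (-0.0021), and in the difference for Nkx2-5 (0.0029), Gata4 (0.011) and Tbx5 (0.098). With no filter they changed in the PAS line for Gata4 (0.0027) and Tbx5 (0.0023), and between the controls for Nkx2-5 (-0.016), Gata4 (-6.7e-05), Mef2a (-0.0098) and Srf (-0.018). The cause was not tested. Leaving out 1 library at a time gave log2 values for PAS against CDS controls of -0.0069 to 0.045 for Gata4, -0.24 to 0.084 for Hand1, -0.057 to 0.054 for Mef2a, -0.028 to 0.050 for Nkx2-5 and -0.034 to 0.033 for Srf. Leaving out 1 library at a time gave log2 values in the PAS line of -0.029 to 0.023 for Gata4, -0.072 to 0.25 for Hand1, -0.031 to 0.079 for Mef2a, -0.013 to 0.021 for Mef2c, -0.077 to 0.063 for Tbx20, -0.029 to 0.017 for Tbx5, -0.061 to 0.30 for the ratio of Hand1 to Hand2, -0.052 to 0.092 for the ratio of Mef2a to Mef2c and -0.065 to 0.071 for the ratio of Tbx5 to Tbx20. Leaving out 1 library at a time gave log2 values for the difference of the lines of -0.018 to 0.065 for Gata6, -0.0083 to 0.32 for Hand1, -0.057 to 0.0097 for Hand2, -0.038 to 0.072 for Mef2a, -0.059 to 0.019 for Nkx2-5 and -0.094 to 0.077 for Tbx5. Leaving out 1 library at a time gave log2 values in the CDS line of -0.25 to 0.016 for Hand1, -0.0045 to 0.017 for Mef2a, -0.029 to 0.045 for Srf, -0.081 to 0.090 for Tbx5, -0.019 to 0.012 for the ratio of Gata4 to Gata6 and -0.25 to 0.010 for the ratio of Hand1 to Hand2. Without a change of sign, leaving out 1 library also moved the CDS value to between 0.0076 and 0.063 for Gata4, 0.0053 and 0.067 for Gata6, -0.047 and -0.0014 for Hand2, -0.074 and -0.017 for Nkx2-5 and 0.060 and 0.19 for Tbx20, and the PAS value to between 0.021 and 0.10 for Gata6, -0.077 and -0.016 for Hand2 and -0.10 and -0.023 for Nkx2-5. The spread within groups without CDS knockout 3 was a setting added after seeing the data. The titles do not say whether libraries of equal replicate number share a litter. Deviations of same-numbered libraries correlated at -0.0945 to 0.220 in the CDS line, against -0.339 to 0.237 for other pairs. In the PAS line the ranges were -0.649 to 0.0899 and -0.472 to 0.560. So few pairs cannot decide whether the numbers pair the libraries. With the number as a replicate block 12, 2, 1 and 23 genes were called, 0 of them members, and the ratio of Mef2a to Mef2c in the PAS line was -0.00086. The 3 or 4 libraries per group limit the precision of each change to its interval.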
